A study of Mus musculus with 240 samples.

Results

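Genes of the MHC class II antigen presentation pathway were followed through a mouse model of glioma: Cd74, H2-Aa, H2-Ab1, H2-Eb1, H2-DMa, H2-DMb1 and Ciita, 7 of the 34623 genes in the table. They were picked by symbol for the rise of Cd74 in tumours, so values of tumours against other animals are a description. Counts past a threshold in those contrasts stand beside the share of all genes past it and support nothing. RNA came from laser-captured brain cells of mice labelled Trp53-/- Nf1-/- (CKO, mutant) or wild-type (WT) at 12, 90 or 150 days after the start of tamoxifen (dpi), and the mutant samples at 150 dpi are tumours. There were 48 bulk libraries from 10 µm sections, all marked tdT-positive, from 37 animals: 5 WT and 7 CKO at 12 dpi, 5 WT and 7 CKO at 90 dpi, and 6 WT and 7 tumour-bearing mice at 150 dpi. Further small libraries came from 8 µm sections of mutant mice at 12 and 90 dpi, without a wild-type group. Of the small libraries, 112 hold 10 cells each (10-cell) and 80 are pool-and-split controls, in which captured material is pooled and then divided. Tamoxifen was shared by all groups. The Cre driver, the reporter allele and the ages are not given in the sources used here. The labels call the tissue oligodendrocyte precursor cells (OPCs) outside the tumours and tumour cells in the 14 tumour libraries.

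MHC class II molecules are heterodimers of an alpha and a beta chain that carry peptides from endocytosed protein to the cell surface, where CD4 T cells read them. The invariant chain Cd74 blocks the groove and guides the dimer to endosomes, and the H2-DM heterodimer helps to exchange the remnant of Cd74 for peptide. Ciita, the class II transactivator, switches the whole group on together with factors bound to the X and Y boxes of the promoters, and interferon gamma induces it. In brain the genes are known from activated microglia, border macrophages and infiltrating dendritic cells, and OPCs have been described to express them in inflammation.

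Bulk libraries held 93694 to 23199230 counts each, 10-cell libraries 1639385 to 6489275 and pool-and-split controls 1906783 to 5160788. The 8 OPC markers (such as Pdgfra, Olig2 and Sox10) summed to between 1668 and 3191 counts per 1000000 counts (CPM) in WT at 150 dpi and between 3967 and 8082 CPM in tumours, and none was at 0 in a whole group. The shallowest bulk library, WT_21167 at 90 dpi, could not have shown a gene below about 28.4 CPM, taking 3 counts as the floor. Nothing in the labels says more about how the animals relate, and p-values measure the spread between these samples.

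Promoter sequence shows what several members share. RefSeq promoter windows (build GRCm38.p6, 250 bases before to 50 after the gene start) were at hand for 4 of the 7 genes, H2-Aa, H2-Eb1, H2-DMa and H2-DMb1. An X box-like run, CTNGNAAC, followed 10 to 30 bases downstream on the same strand by a Y box-like ATTGG (the reverse complement of CCAAT), was found in 3 of these 4. The stretches below are printed because they carry that pair, with the matching letters in capitals, 5′ to 3′ on the strand of the gene: H2-Aa at chr17:34287837-34287937 (minus strand), H2-Eb1 at chr17:34305743-34305842 (plus strand) and H2-DMb1 at chr17:34153064-34153164 (plus strand).
H2-Aa: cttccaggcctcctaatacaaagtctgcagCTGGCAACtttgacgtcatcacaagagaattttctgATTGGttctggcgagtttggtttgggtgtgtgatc
H2-Eb1: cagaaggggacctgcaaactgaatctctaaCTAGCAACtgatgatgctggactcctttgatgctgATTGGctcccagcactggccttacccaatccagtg
H2-DMb1: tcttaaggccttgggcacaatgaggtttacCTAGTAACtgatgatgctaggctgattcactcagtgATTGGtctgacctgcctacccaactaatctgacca
The gap between both runs was 28 bases in H2-Aa and H2-DMb1 and 27 in H2-Eb1, and the X-like run began 84, 97 and 94 bases before the RefSeq start of H2-Aa, H2-DMb1 and H2-Eb1. RefSeq and deposited starts differ: the deposited start of H2-DMb1, 34153072, lies upstream of its RefSeq start and inside the printed stretch. Counting either strand, CTNGNAAC alone occurred in 13.2% of 32851 promoter windows, ATTGG alone in 37.4%, and the ordered pair in 0.277% (91 windows). Of 4 related class II genes outside the 7 with a window, H2-Ob also held the pair, with a gap of 25 bases. H2-Oa, H2-DMb2 and H2-Eb2 did not hold it. The pair was in neither H2-DMa window, but these windows (34122582 to 34122881 and 34125268 to 34125567) lie upstream of the deposited start of that gene, 34135182, so the sequence at that start was not searched. The letters were chosen after reading these promoters, so the count among them is a description.

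Cd74 (ENSMUSG00000024610, chromosome 18, 60803848 to 60812646, plus strand, GRCm38), the invariant chain, was low in wild-type and premalignant cells and spread widely among tumours. The 6 WT animals at 150 dpi had 0, 0, 0, 0, 0.567 and 2.74 CPM, and the 0 values have floors between 0.204 and 1.00 CPM at their depth. The 7 tumours had 2.83, 11.6, 33.3, 39.7, 45.4, 64.0 and 418 CPM. Every tumour lay above every WT animal of that age, although the lowest, Tumor_16839, was barely above WT_21593. Tumor_21354 held 418 CPM on 14819 counts and stood far above the other tumours. Before tumours, WT at 12 dpi ran from 1.34 to 5.16 CPM, CKO at 12 dpi from 0 to 22.8, WT at 90 dpi from 0 to 2.28 and CKO at 90 dpi from 0.0767 to 9.32. Tumor_16839 lay inside the range of CKO animals at both earlier times. In bulk libraries more cells that express a gene and more RNA per such cell cannot be told apart, here and in all bulk results.

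**Figure D1:**
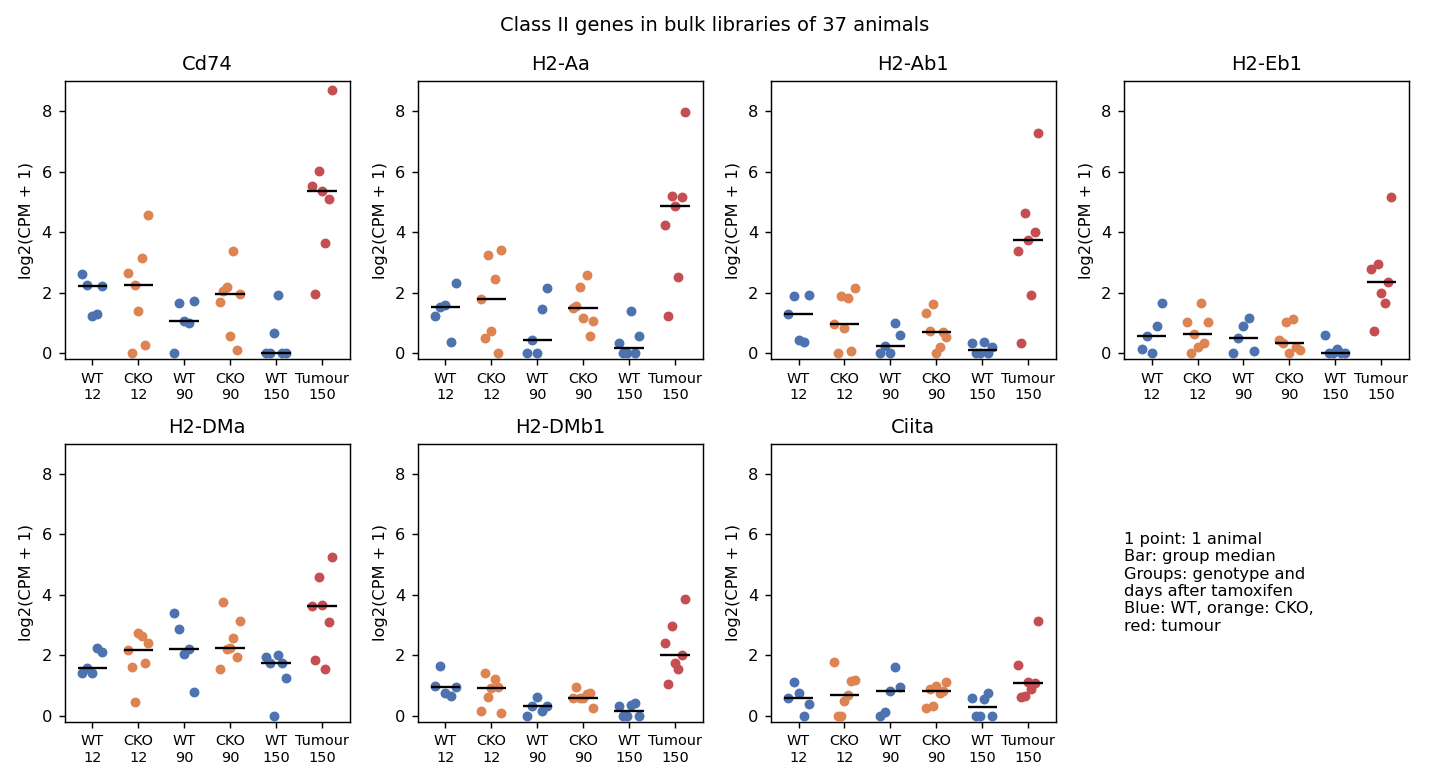
Level of each of the 7 genes as log2(CPM + 1) on the y axis in the 6 bulk groups on the x axis (genotype and days after tamoxifen), with 1 point per animal and a bar at the group median. The tumours are the highest group for each gene by median, with Cd74 from 2.83 to 418 CPM, and the groups at 12 and 90 dpi overlap.

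The classical chains followed the invariant chain. H2-Aa (ENSMUSG00000036594, chromosome 17, 34282744 to 34287827, minus strand), the I-A alpha chain, had 1.35, 4.73, 17.8, 28.3, 34.8, 35.4 and 253 CPM in the 7 tumours and 0, 0, 0, 0.255, 0.477 and 1.61 CPM in WT at 150 dpi. Only WT_21593 exceeded the lowest tumour. H2-Ab1 (ENSMUSG00000073421, chromosome 17, 34263209 to 34269418, plus strand), its beta chain partner, had 0.269, 2.80, 9.33, 12.3, 14.9, 23.7 and 156 CPM in tumours and 0, 0, 0, 0.136, 0.255 and 0.284 CPM in WT. Its lowest tumour, again Tumor_16839, rested on 2 counts and lay below WT_21593. H2-Eb1 (ENSMUSG00000060586, chromosome 17, 34305877 to 34316199, plus strand), the I-E beta chain, had 0.673, 2.15, 2.98, 4.06, 5.82, 6.64 and 34.9 CPM in tumours and 0, 0, 0, 0, 0.0945 and 0.510 CPM in WT, so these groups did not overlap. An antisense gene, Gm20513, overlaps H2-Eb1, and no source used here says that the counting used strand.

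At the earlier times the classical chains stayed at a few CPM. H2-Aa ran from 0.290 to 3.95 CPM in WT and from 0 to 9.54 in CKO at 12 dpi, and from 0 to 3.47 in WT and from 0.460 to 4.95 in CKO at 90 dpi. H2-Ab1 reached at most 2.74 CPM in WT and 3.48 in CKO at 12 dpi, and at most 0.977 and 2.05 at 90 dpi. H2-Eb1 reached at most 2.13 and 2.14 CPM at 12 dpi, and at most 1.23 and 1.18 at 90 dpi. Genotypes overlapped at both times for all 3 chains.

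The peptide editors differed from each other. H2-DMa (ENSMUSG00000037649, chromosome 17, 34135182 to 34139101, plus strand), the DM alpha chain, was measurable in nearly all animals: 0, 1.36, 2.32, 2.34, 2.80 and 3.02 CPM in WT at 150 dpi against 1.94, 2.56, 7.63, 11.3, 11.8, 23.1 and 37.4 CPM in tumours. The 2 lowest tumours, Tumor_21256 and Tumor_16839, were within the WT range. It overlaps Brd2 on the opposite strand, a broadly expressed chromatin gene, and 3 further annotated genes. H2-DMb1 (ENSMUSG00000079547, chromosome 17, 34153072 to 34160230, plus strand), a DM beta chain, had 1.08, 1.94, 2.33, 3.00, 4.28, 6.79 and 13.7 CPM in tumours and 0, 0, 0, 0.255, 0.284 and 0.334 CPM in WT, without overlap. Its highest CKO animal at 90 dpi had 0.917 CPM, so the tumours also lay above all 7 of those. The transcript is 95.7% identical to H2-DMb2 over 77.0% of the shorter one, so reads may be divided between both copies and its level is uncertain.

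Ciita (ENSMUSG00000022504, chromosome 16, 10488178 to 10527564, plus strand), the transactivator, had the lowest median of the 7 in tumours. The tumours had 0.539, 0.585, 0.860, 1.13, 1.18, 2.20 and 7.85 CPM, against 0, 0, 0, 0.473, 0.510 and 0.668 CPM in WT at 150 dpi. The groups overlapped, and 6 of the 7 tumours lay within the range of 0 to 2.43 CPM seen in CKO animals at 12 dpi. Tumor_21354 alone was above it. Dexi overlaps Ciita on the opposite strand.

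Put in order by group median, Cd74 stood at 39.7 CPM in tumours, 3.79 in CKO and 3.65 in WT at 12 dpi, 2.89 in CKO and 1.08 in WT at 90 dpi, and 0 in WT at 150 dpi. Neighbours in this order below the tumours overlapped in range. The median of H2-Aa was 28.3, 2.43, 1.87, 1.79, 0.333 and 0.127 CPM in the same order of groups. H2-DMa did not follow it, with 11.3 CPM in tumours, 3.68 in CKO and 3.60 in WT at 90 dpi, 3.48 and 1.99 in CKO and WT at 12 dpi and 2.33 in WT at 150 dpi. The medians of WT at 90 dpi include the shallow library of WT_21167. There H2-DMa was 9.48 CPM on 1 count, and Cd74 and H2-Aa were at 0, with a floor of 28.4 CPM. The place of that group in each order is therefore uncertain. Levels between genes can be set side by side only per length. Per kilobase of exon the tumour median was 23.7 CPM for Cd74, 7.46 for H2-Aa, 4.78 for H2-Ab1, 3.28 for H2-DMa, 2.09 for H2-Eb1, 1.79 for H2-DMb1 and 0.119 for Ciita. Across the tumours, neighbours in this order overlapped in range.

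In the fit of all bulk animals (edgeR quasi-likelihood, sex as a covariate), the log2 change in tumours against WT at 150 dpi was 6.88 (SE 1.18) for Cd74, 6.49 (SE 1.16) for H2-Aa, 7.51 (SE 1.21) for H2-Ab1 and 6.39 (SE 1.19) for H2-Eb1. It was 2.73 (SE 0.62) for H2-DMa, 5.06 (SE 0.79) for H2-DMb1 and 2.90 (SE 0.92) for Ciita. All 7 were past an adjusted p of 0.05, where 24.3% of 16349 genes were higher and 21.9% lower in tumours at that threshold. Every tumour lay above every WT animal for 3 of 7 (Cd74, H2-Eb1 and H2-DMb1), against 6.72% of all genes. Since the genes were picked for this contrast, nothing is read from these counts. All 7 genes passed the filter on low counts, and 6 of 7 would pass without the tumours, the exception being H2-DMb1. Most WT values were 0 or near it, so the fitted size depends on single animals: without WT_21593 the Cd74 value was 10.92, and without Tumor_21354 it was 5.25. H2-Aa moved to 7.63 and 5.06 without the same animals. H2-Ab1 was 6.09, H2-Eb1 4.99, H2-DMa 2.18 and H2-DMb1 4.55 without Tumor_21354, and H2-Eb1 was 7.76 without WT_21590. Ciita was 1.97 without Tumor_21354 and then no longer past the threshold.

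Against CKO cells at 90 dpi, the log2 change in tumours was 4.74 (SE 0.95) for Cd74, 4.55 (SE 0.94) for H2-Aa, 5.29 (SE 0.92) for H2-Ab1 and 4.31 (SE 0.88) for H2-Eb1. The editors had 1.35 (SE 0.54, H2-DMa) and 3.06 (SE 0.59, H2-DMb1), and Ciita had 1.43 (SE 0.75). Of the 7, 6 were past the threshold (26.4% of all genes were higher and 22.6% lower in tumours), and Ciita was not. Only H2-DMb1 did not overlap between the groups (6.77% of all genes lay higher without overlap). Without Tumor_21354 the values fell to 3.40 for Cd74, 3.28 for H2-Aa, 3.85 for H2-Ab1, 3.12 for H2-Eb1, 0.83 for H2-DMa, 2.61 for H2-DMb1 and 0.62 for Ciita. H2-DMa was no longer past the threshold then, nor with the compared groups alone (1.32), nor without Tumor_16840 (1.18), CKO_20642 (1.19), CKO_22146 (1.28), CKO_22149 (1.28), CKO_22152 (1.34) or CKO_22154 (1.25). Both tumour contrasts share the 7 tumours. Under RLE size factors the median of all genes moved by 0.15 against WT and 0.17 against CKO on the log2 scale, and the direction of no member changed.

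**Figure D2:**
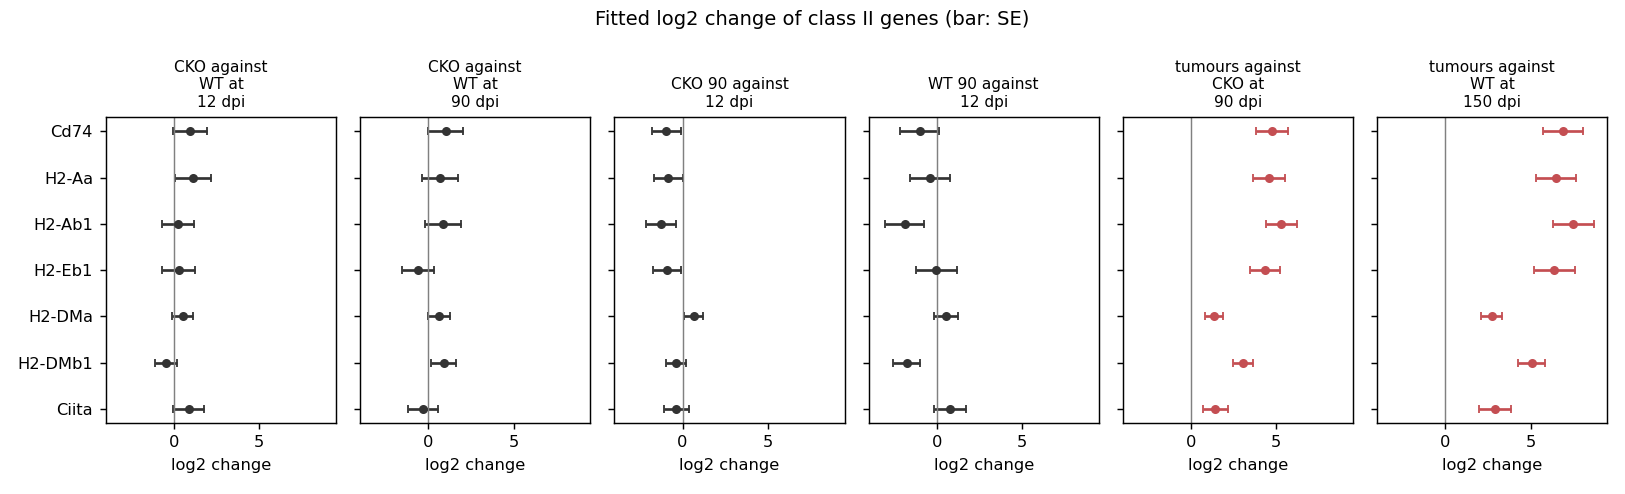
Fitted log2 change of each gene on the x axis, with its SE as a bar, in 6 bulk contrasts. The 2 tumour contrasts (red) are a description and reach 7.51 for H2-Ab1, while none of the values of the 4 contrasts at 12 and 90 dpi (black) passed the threshold.

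Genes that act around class II were described in the same contrasts. Of all genes 24.3% were higher and 21.9% lower against WT, and 26.4% higher and 22.6% lower against CKO. Of 5 other class II genes, 3 were tested against WT, and 1 was past the threshold: H2-DMb2, with a log2 change of 1.15 (SE 0.38). Against CKO at 90 dpi all 3 tested were past it, with 4.99 (SE 1.07) for H2-Oa and 2.77 (SE 0.89) for H2-Ob, which form the DM inhibitor DO. Of 13 genes of class II transcription, 6 were higher and 3 lower against WT (24.3% and 21.9% of all genes), with a median change of 0.35 beside 0.06 for all genes. Irf1 (2.64, SE 0.52), a transcription factor of the interferon response, was highest, and Nfyc (-0.89, SE 0.19) and Jak2 (-0.64, SE 0.17), a Y box factor subunit and a receptor kinase, were lowest. The X box subunits Rfx5 (0.14, SE 0.17) and Rfxap (0.35, SE 0.20) were not past the threshold. Against CKO at 90 dpi, 5 of these 13 were higher and 4 lower, again with Irf1 (2.73, SE 0.50), Nfyc (-0.80, SE 0.18) and Jak2 (-0.63, SE 0.16) at the ends. Of 11 antigen processing genes 10 were tested, and 6 were higher and 0 lower in each contrast. The highest were Cd44 (5.47, SE 0.96), a Cd74 co-receptor, and Ctss (2.62, SE 0.31), the protease that trims Cd74, against WT, and Cd44 (4.84, SE 0.79) and Cd86 (2.80, SE 0.63), a costimulatory ligand, against CKO. Cd40, a costimulatory receptor, was lowest in both, with -0.12 (SE 0.23) and 0.23 (SE 0.22), not past the threshold.

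Markers of other cell types were described in tumours against WT at 150 dpi. At the threshold 24.3% of all genes were higher and 21.9% lower there. Of 12 microglia markers 10 were higher and 1 (Sall1) lower in tumours than in WT at 150 dpi. Their summed level was 406 to 1136 CPM in tumours and 313 to 383 in WT. The 8 monocyte and macrophage markers summed to 48.4 to 628 CPM in tumours and 35.7 to 62.1 in WT, where Plac8 was at 0 in every animal, and 2 of 7 tested were higher. Lyz2, lysozyme of myeloid cells, had a log2 change of 3.84 (SE 0.63). Dendritic cell markers summed to 33.9 to 66.5 CPM in tumours and 13.1 to 29.6 in WT, where Ccr7 was at 0, and 2 of 7 tested were higher. Cd209a had the lowest change, -1.92 (SE 1.71), not past the threshold. Itgax, the CD11c integrin of dendritic cells and activated microglia, had a log2 change of 5.89 (SE 0.90). B cell markers summed to 0.468 to 26.3 CPM in tumours and at most 1.80 in WT, with Cd79b and Pax5 among those at 0 in all WT, and 0 of 1 tested was higher. T cell markers summed to 1.75 to 24.4 CPM in tumours and 0.334 to 3.48 in WT, with Cd3g and Cd2 at 0 in all WT, and 1 of 3 tested was higher. Of 6 endothelial markers 0 were higher and 2 lower, with sums of 95.6 to 211 CPM in tumours and 190 to 277 in WT. The share past the threshold was 28.6% of monocyte and macrophage and of dendritic cell markers, and 33.3% of T cell and of endothelial markers. These shares rest on few genes and are near that of all genes, so nothing is read from them. The part of these cells in the class II values was not tested.

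Between tumours the class II genes varied together. Tumor_21354 was the highest for all 7 genes and Tumor_16839 the lowest for 6 of 7. The order of Cd74, from low to high, was Tumor_16839, Tumor_21256, Tumor_21349, Tumor_16844, Tumor_16713, Tumor_16840 and Tumor_21354. Summed over the 7 genes, they held 9.29, 26.0, 98.8, 98.7, 96.1, 160 and 921 CPM. The order was not the same for every gene. Tumor_16713, above Tumor_21349 and Tumor_16844 for Cd74, was below both for H2-Aa and H2-Ab1, and Tumor_21256 was the lowest for H2-DMa. Tumor_16840 had 64.0 CPM of Cd74 and 0.585 CPM of Ciita, where 1 of its 2 libraries gave 0 counts.

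**Figure D3:**
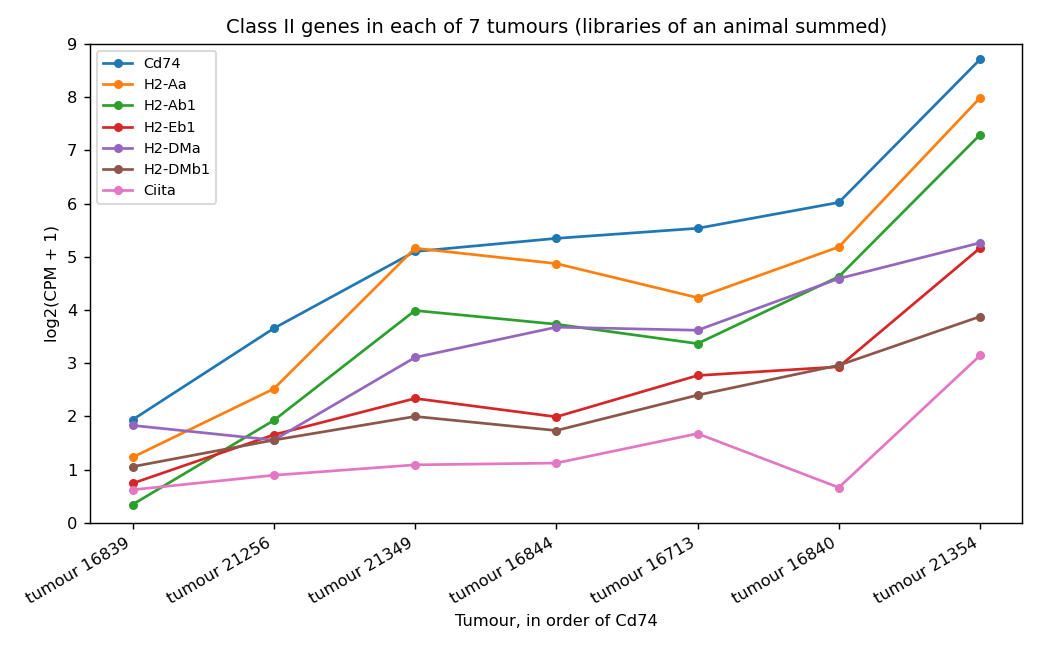
Level of each gene as log2(CPM + 1) on the y axis in the 7 tumours, ordered on the x axis by Cd74. All 7 lines peak in Tumor_21354, where Cd74 is at 418 CPM, and Ciita lies between 0.539 and 2.20 CPM in the other 6 tumours.

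Correlations with Cd74 on log2(CPM + 1) across the 7 tumours were tested by exact permutation, two-sided, with Benjamini-Hochberg adjustment over 12 relations. Pearson's r was 0.98 for H2-Aa (p 0.0026, adjusted 0.0067; rho 0.86, p 0.0238, adjusted 0.0571) and 0.99 for H2-Ab1 (p 0.0012, adjusted 0.0048; rho 0.86, p 0.0238, adjusted 0.0571) in this permutation test. The same exact permutation test gave 0.97 for H2-Eb1 (p 7.9e-04, adjusted 0.0048; rho 0.96, p 0.0028, adjusted 0.0167) and 0.95 for H2-DMb1 (p 0.0012, adjusted 0.0048; rho 0.96, p 0.0028, adjusted 0.0167). For H2-DMa r was 0.92 (exact permutation p 0.0028, adjusted 0.0067; rho 0.93, p 0.0067, adjusted 0.0270). Without Tumor_16839 and Tumor_21354, the tumours farthest from the median of Cd74, r was 0.87, 0.92, 0.86, 0.81 and 0.99 for H2-Aa, H2-Ab1, H2-Eb1, H2-DMb1 and H2-DMa. Ciita had r 0.81 (exact permutation p 0.0313, adjusted 0.0463; rho 0.64, p 0.139, adjusted 0.185), which rested on those tumours, since r was 0.11 without them. With the deepest library of each animal it was 0.64 and no longer past the threshold. All values of a tumour share its libraries and scaling. The genes were picked for Cd74 in these same tumours, so these tests describe the 7 tumours and support nothing further.

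The same exact permutation test was run on the mean log2(CPM + 1) of each marker list, also as a description. No share of all genes with such an r was computed, so these values have no background to be read against. Microglia markers had r 0.81 with Cd74 (permutation p 0.0276, adjusted 0.0463; rho 0.82, p 0.0341, adjusted 0.0585) and 0.76 without the same tumours. Dendritic cell markers had r 0.87 (permutation p 0.0145, adjusted 0.0290; rho 0.82, p 0.0341, adjusted 0.0585) and T cell markers r 0.80 (permutation p 0.0347, adjusted 0.0463; rho 0.36, p 0.444, adjusted 0.485). Both rested on those tumours, with r 0.37 and -0.37 without them. Monocyte and macrophage markers had r 0.75 (permutation p 0.0502, adjusted 0.0602; rho 0.68, p 0.110, adjusted 0.164), B cell markers 0.23 (permutation p 0.573, adjusted 0.573; rho 0.18, p 0.713, adjusted 0.713) and endothelial markers 0.64 (permutation p 0.123, adjusted 0.134; rho 0.36, p 0.444, adjusted 0.485), none past the threshold. Without those tumours r was 0.58, -0.06 and -0.76. Monocyte and macrophage markers were past the threshold with a pseudocount of 0.1 (r 0.83) and with the deepest library of each animal (r 0.80), and T cell markers were not with a pseudocount of 0.1 (r 0.78). Tumor_21354, the highest for class II, also had the highest sums of microglia (1136 CPM), monocyte and macrophage (628 CPM), dendritic cell (66.5 CPM) and T cell markers (24.4 CPM). Tumor_16713 and Tumor_21349 had 561 and 365 CPM of monocyte and macrophage markers beside 45.4 and 33.3 CPM of Cd74, and Tumor_16844 had 52.3 beside 39.7.

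**Figure D4:**
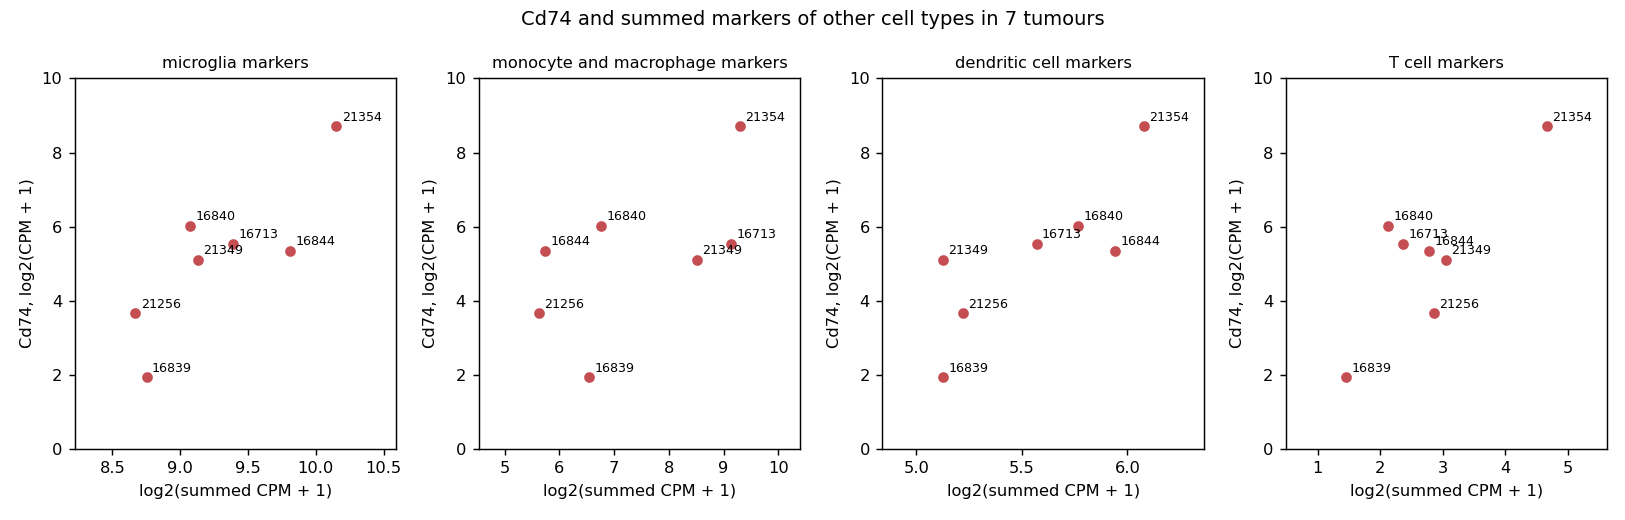
Cd74 as log2(CPM + 1) on the y axis against the summed level of 4 marker lists, as log2(summed CPM + 1), on the x axis, with 1 labelled point per tumour. Tumor_21354 is at the upper right of each panel, with 1136 CPM of microglia markers and 24.4 CPM of T cell markers.

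Likeness to Cd74 was also ranked over the 10556 genes outside the 7 with a mean of at least 10 CPM in tumours, by Pearson's r of log2(CPM + 1). The 10 with the highest r across the 7 tumours were Maats1 (0.981), Wwtr1 (0.977), Prcc (0.964), Csf1 (0.954), Irf8 (0.950), Prl8a1 (0.949), Il18bp (0.947), Mccc1 (0.947), Zer1 (0.946) and Sfi1 (0.944). For comparison H2-Ab1 had 0.989, above all of them, H2-Aa 0.978, between Maats1 and Wwtr1, and H2-DMa 0.923, below the 10. Irf8, a transcription factor of myeloid cells, ran from 4.98 to 45.9 CPM between tumours. Csf1, the growth factor of microglia and macrophages, ran from 15.4 to 121 CPM. Il18bp, an interferon-induced decoy of interleukin 18, ran from 6.87 to 50.3 CPM. With 7 tumours many of 10556 genes reach a high r, and these are given as a ranking with no test.

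The 2 libraries of an animal were set beside the range between animals. The labels do not say whether both come from the same captured material, so their difference cannot be called technical. For Cd74 the 7 tumours with 2 libraries each differed within the animal by 0.06 to 0.55 (median 0.48) on the log2(CPM + 1) scale, where the tumours spanned 6.77. The H2-Aa libraries differed by at most 1.12, where tumours spanned 6.76, and those of H2-Ab1 by at most 1.17, where they spanned 6.95. For other genes the libraries of a tumour differed more beside the range between tumours. The largest differences were 2.00 beside 4.42 for H2-Eb1, 1.38 beside 3.71 for H2-DMa, 0.72 beside 2.83 for H2-DMb1 and 1.38 beside 2.52 for Ciita. In 2 of 3 CKO animals at 90 dpi with 2 libraries, Cd74 differed widely between them. CKO_20647 gave 52.0 counts of Cd74 in one library and 0 in the other (5.38 and 0 CPM), while H2-DMa had 1.65 and 20.3 CPM. CKO_22212 gave 89.0 and 1.00 counts of Cd74. The differences of 2.67 and 2.55 in Cd74 were nearly as large as the range of 3.26 between the 7 CKO animals. The libraries of CKO_20642 at 90 dpi (2.58 and 1.89 CPM) and CKO_22208 at 12 dpi (1.05 and 2.14 CPM) differed less, by 0.31 and 0.61.

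Before tumours, comparisons the choice of genes did not use were tested. In CKO against WT at 12 dpi the log2 change was 0.96 (SE 1.00) for Cd74, with 6 of 7 genes positive and a median of 0.50 over the 7 genes, beside 0.03 over all genes. The lowest was H2-DMb1 with -0.46 (SE 0.65) and the highest H2-Aa with 1.12 (SE 1.05). H2-DMb1 passed the filter on low counts only through the tumours, so its fitted values in these contrasts are a description. None of the 7 was called by edgeR (0.0183% of all genes were) or had an unadjusted p under 0.05 (4.85% of all genes did), and none was called by DESeq2 (0.0649% of its genes). At 90 dpi Cd74 had 1.01 (SE 1.04), the 7 ran from -0.60 (H2-Eb1, SE 0.94) to that value with a median of 0.70, and again none was called by edgeR (0.0489% of all genes) or DESeq2 (0.0613%) or had an unadjusted p under 0.05 (5.20% of all genes). The 95% interval of the Cd74 change was -1.01 to 2.92 at 12 dpi and -1.02 to 3.04 at 90 dpi, and changes within it are compatible with these data. It is not a limit of detection, since a call needed an adjusted p over all genes, which is stricter. The tumours are in the same fit and share its estimate of the spread. Genotypes overlapped for all 7 genes at both times, where 0.722% and 0.447% of genes lay higher in every CKO animal.

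An exact permutation test of each gene on log2(CPM + 1), two-sided and adjusted over 14 tests, called none. The lowest p was that of H2-DMb1 at 90 dpi, higher by 0.35 in CKO (permutation p 0.0303, adjusted 0.424): the CKO animals had 0.193 to 0.917 CPM and the WT animals 0 to 0.539. At 12 dpi the same difference was -0.22 (permutation p 0.427, adjusted 0.904). The values at 90 dpi rest on at most 14.9 counts per animal.

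From 12 to 90 dpi, 0 of 7 genes was called in CKO animals by edgeR (0% of all genes) or DESeq2 (0.0144%), and none had an unadjusted p under 0.05 (4.26% of all genes). Cd74 had a log2 change of -0.94 (SE 0.83), and H2-DMa was the single positive gene (0.65, SE 0.54). In WT 0 of 7 was called by edgeR (0.00612% of all genes) or DESeq2 (0.0469%), and 1 had an unadjusted p under 0.05 (4.86% of all genes): H2-DMb1, with -1.76 (SE 0.79, edgeR p 0.0334, adjusted 0.995). WT_21167, with the shallow library, is among its WT animals at 90 dpi, which had 0 to 0.539 CPM. H2-DMb1 passed the filter only through the tumours, so nothing is read from this p or from its interaction value below. The interaction of genotype and time was called for none by edgeR (0% of all genes) or DESeq2 (0.0325%), and none had an unadjusted p under 0.05 (3.60% of all genes). Cd74 had 0.06 (SE 1.35) and H2-DMb1 the largest value with 1.37 (SE 0.98). Of the other class II, class II transcription and antigen processing genes, none was called by edgeR in these 5 contrasts.

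Small libraries show how unevenly the few transcripts were spread. A gene counts as detected where a library had a count above 0. PCR reads without molecular identifiers are not independent molecules, so intervals cover counting error only. They also take libraries as independent, although libraries of a set (same time, sex and number in the label) share their source. Cd74 was detected in 8 of 56 10-cell libraries at 12 dpi (14.3%, exact binomial interval 6.38 to 26.2) and 37 of 56 at 90 dpi (66.1%, 52.2 to 78.2). In pool-and-split libraries it was detected in 22 of 40 (55.0%, 38.5 to 70.7) and 28 of 40 (70.0%, 53.5 to 83.4). At 90 dpi single sets ran from 35.7 to 92.9% (10-cell) and from 40.0 to 100% (pool-and-split), so these intervals are too narrow for the spread between sets. When present Cd74 could be abundant, up to 959 CPM at 12 dpi and 3000 CPM at 90 dpi in 10-cell libraries, with a median of 93.8 and 236 CPM where detected. At 12 dpi, 2 of the 56 10-cell libraries held 79.8% of the summed Cd74 level.

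The other genes were detected in fewer libraries than Cd74 at 90 dpi, and H2-Ab1 in as many 10-cell libraries at 12 dpi. H2-Aa was detected in 6 of 56 10-cell libraries at 12 dpi and 27 of 56 at 90 dpi, H2-Ab1 in 8 and 29, H2-Eb1 in 7 and 20, H2-DMa in 7 and 12, and H2-DMb1 in 5 and 12. Ciita was detected in 0 of 56 at 12 dpi and in 1 of 56 at 90 dpi, at 0.241 CPM. The 0 at 12 dpi allows a share of up to 5.36%, taken as 3 of 56 libraries, or up to 6.38% by the exact binomial interval. In pool-and-split libraries Ciita was in 0 of 40 at each time, which allows up to 7.50% (3 of 40), or up to 8.81% by the exact binomial interval. No library held more than 6 of the 7 genes. At 12 dpi 40 of 56 10-cell libraries held none of the 7, against 13 of 56 at 90 dpi, and 4 of 56 against 11 of 56 held at least 5.

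At 90 dpi most 10-cell libraries with another class II gene had Cd74 as well. Cd74 was in 26 of 27 libraries with H2-Aa, 27 of 29 with H2-Ab1, 19 of 20 with H2-Eb1, 10 of 12 with H2-DMa and 11 of 12 with H2-DMb1, beside 37 of all 56. At 12 dpi it was in 6 of 6, 7 of 8, 5 of 7, 3 of 7 and 3 of 5 in the same order of genes, beside 8 of 56. In pool-and-split controls at 12 dpi it was in 9 of 14 with H2-Ab1, beside 22 of 40. All 14 10-cell libraries with Itgax at 90 dpi had Cd74, against 1 of 3 at 12 dpi, and in the controls it was 8 of 8 and 0 of 2. Flt3, another dendritic cell marker, differed: Cd74 was in 8 of 16 10-cell libraries with Flt3 at 90 dpi and 1 of 6 at 12 dpi. In the controls Cd74 was in 6 of 7 and 1 of 4 libraries with Flt3. The microglia gene Csf1r was in 55 of 56 libraries at 90 dpi and in 36 of the 37 with Cd74, so it did not mark them. Libraries of a set share their source, and these counts are not replicates. At 90 dpi Cd74 was in 26 of 28 10-cell libraries from males and 11 of 28 from females. Males gave 23 of the 27 libraries with H2-Aa and 23 of the 29 with H2-Ab1. Joint detection within a set therefore cannot be read from shares over all 56. Spearman's rho of Cd74 with H2-Aa and H2-Ab1 was 0.25 and 0.24 in the male_1 set and 0.77 and 0.80 in male_2.

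By set (time, sex and the number in the label; 14 libraries of 10 cells and 10 controls in each) the detection of Cd74 split with sex at 90 dpi. The 10-cell sets gave 6 and 5 of 14 libraries in the female and 13 and 13 of 14 in the male sets. The pool-and-split sets gave 4 and 4 of 10 in the female and 10 and 10 of 10 in the male sets. H2-Aa followed, with 2 and 2 of 14 in the female and 12 and 11 of 14 in the male 10-cell sets, and H2-Ab1 with 3 and 3 against 12 and 11. At 12 dpi the 10-cell sets gave 0 and 4 of 14 (female) and 2 and 2 of 14 (male) for Cd74, without such a split. With 2 sets of each sex, and the labels not saying whether a set is an animal, sex and set cannot be told apart. Bulk CKO animals at 90 dpi overlapped between the sexes, with 0.0767, 2.19 and 3.18 CPM of Cd74 in males and 0.491, 2.89, 3.58 and 9.32 CPM in females. The male sets at 90 dpi were not the deepest, with median totals of 3695673 and 3664310 counts against 4200360 and 4473104 in the female sets. Microglia markers were detected in 77.4 and 88.1% of library and gene pairs in these male sets and in 72.6 and 83.3% in the female sets, and dendritic cell markers in 36.6 and 42.0% against 32.1 and 36.6%. The microglia values overlapped between the sexes, and the dendritic cell values met at 36.6%. Monocyte and macrophage markers (25.9 and 38.4% against 32.1 and 35.7%) and T cell markers (5.95 and 13.1% against 8.33 and 5.95%) overlapped as well. The part of RNA from these cells in the split was not tested.

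**Figure D5:**
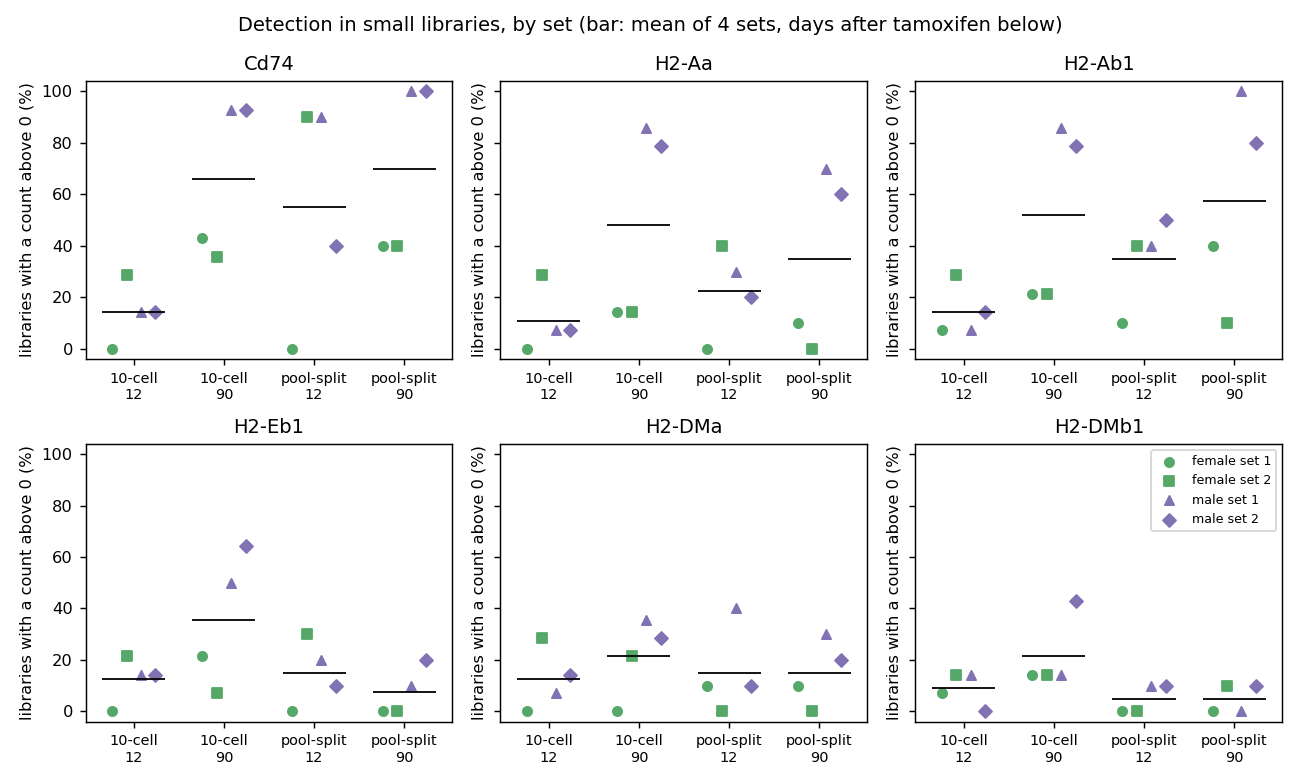
Share of libraries with a count above 0 for 6 genes on the y axis, by kind of library and days after tamoxifen on the x axis, with 1 point per set, its shape giving the set, and a bar at the mean of 4 sets. For Cd74 the male sets at 90 dpi are at 92.9% (10-cell) and 100% (pool-and-split), and the female sets are between 35.7 and 42.9%.

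The change over time in these libraries was tested on counts summed per set. In 10-cell sets none of the 6 tested genes was called by edgeR between 90 and 12 dpi (0% of all genes), none had an unadjusted p under 0.05 (7.31% of all genes), and none was called by DESeq2 (3.33% of all genes). Cd74 had a log2 change of 2.66 (SE 3.13). In pool-and-split sets none of 5 tested genes was called by edgeR (0% of all genes) or DESeq2 (4.71% of all genes), and none had an unadjusted p under 0.05 (7.92% of all genes). Cd74 had 1.26 (SE 1.71) and H2-Eb1 -5.70 (SE 2.62). At 12 dpi 2 of the 40 pool-and-split libraries held 99.0% of the summed H2-Eb1 level. Ciita, and in pool-and-split sets also H2-DMb1, did not pass the filter. The share of libraries with Cd74 was compared over sets by an exact permutation test added after seeing the data. In 10-cell sets it was 51.8 percentage points higher at 90 than at 12 dpi (0 to 28.6% of libraries in the 4 sets at 12 dpi, 35.7 to 92.9% at 90 dpi; two-sided permutation p 0.0286, the smallest that 4 against 4 sets allow, adjusted 0.343 over 12 tests). This was 1 of 6 members with every 90 dpi set above every 12 dpi set, where 14.7% of all genes did the same, so it is near the background. Without the female_1, female_2, male_1 or male_2 set at 12 dpi the difference was 47.0, 56.5, 51.8 and 51.8 points (permutation p 0.0857, 0.0571, 0.0857 and 0.0857), and with a count of at least 5 as detection it was 51.8 points (permutation p 0.0571). Over the same sets the share of all genes detected was 22.4% at 12 and 29.0% at 90 dpi (permutation p 0.0286), and that of microglia markers 54.3 and 80.4% (permutation p 0.0286). It rose as well for OPC markers (68.3 to 86.6%), endothelial markers (59.8 to 78.0%) and monocyte and macrophage markers (21.7 to 33.0%), each with permutation p 0.0571. In pool-and-split sets Cd74 was 15.0 points higher (permutation p 0.571, adjusted 0.720), and 0 of 5 members separated (1.91% of all genes).

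Detection in 10-cell libraries was also set against the controls of the same sets. Libraries of a set share their source, so the differences are given as a description of these libraries, with no p. At 12 dpi Cd74 was detected in 40.7 percentage points fewer 10-cell than pool-and-split libraries (14.3 against 55.0%). By set it was in 0, 4, 2 and 2 of 14 10-cell libraries and in 0, 9, 9 and 4 of 10 controls (female_1, female_2, male_1 and male_2). The share was lower in 10-cell libraries in 3 of the 4 sets, and female_1 had none in either kind. Of 14647 genes detected in at least 10% of those libraries, 0.0273% had a difference as low, and the median gene had -4.64 points. At 90 dpi the Cd74 difference was -3.93 points. H2-Eb1 went the other way at 90 dpi, with 20 of 56 10-cell libraries and 3 of 40 controls, 28.2 points more. By set it was in 3, 1, 7 and 9 of 14 10-cell libraries and in 0, 0, 1 and 2 of 10 controls, so all 4 sets had the same direction. Of 15509 genes 4.71% had a difference as high, and the median gene had 5.71 points.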

How the data were processed

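The deposited table holds estimated counts per gene (RSEM expected counts) for 240 libraries. Per the submitters' processing notes RSEM and Bowtie2 were used with GRCm38, and their versions and settings are not given in the sources used here. Bulk material went through T7 linear amplification and small samples through PCR, per the labels. The members and lists were chosen with earlier results of these data known. Expected counts were rounded, the 2 libraries of 11 animals summed, and 92 spike-in rows left out. Genes were kept by filterByExpr of edgeR 4.0.16 in R 4.3.3, set to a count of 10 and a total of 15. After TMM scaling, the quasi-likelihood test was run with sex as a covariate and Benjamini-Hochberg adjustment over all genes (call: adjusted p under 0.05). CPM of animals are per 1000000 of TMM-scaled totals, and those of single libraries, small ones included, of plain totals. An SE is the log2 change over the root of F. Animals, or sets of small libraries, were the replicates. Named genes are the 7, the ends of each list, and the 10 genes most like Cd74 over tumours. Some list genes are not reported here by name. Alternatives were DESeq2 1.42.0, RLE factors, no filter, no sex covariate, the deepest library, compared groups alone, other pseudocounts (main 1), detection at a count of 5, a replicate block and leaving out each replicate. The fits were tested on simulated data.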

Additional observations from a re-analysis of the deposited data

Results flagged for a closer look

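In 70 groups of animals or sets, 5 values stood apart from the others of their group by Dixon's test at 95%, where chance flags about 1 in 20 groups. Cd74 in WT_21593 at 150 dpi was 2.74 CPM, against 0 to 0.567 CPM in the other WT animals. H2-Eb1 in WT_21590 was 0.510 CPM on 2.00 counts, against 0 to 0.0945 CPM. Ciita in Tumor_21354 was 7.85 CPM, against 0.539 to 2.20 CPM in the other tumours. H2-DMb1 was detected in 42.9% of the 10-cell libraries of the male_2 set at 90 dpi, against 14.3% in each other set. Ciita was detected in 7.14% (1 of 14) of the 10-cell libraries of the female_1 set at 90 dpi and in 0% of the others.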

How the results depend on the processing

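No member was called in the contrasts at 12 and 90 dpi under any alternative run. Values near 0 changed sign. H2-Ab1 in CKO against WT at 12 dpi was -0.11 with the compared groups alone and -0.03 without the sex covariate. DESeq2 gave 0.05 for H2-Eb1 in WT over time and -0.07 for Cd74 in the genotype effect over time, and the deepest library gave -0.46 for H2-DMa there. In 10-cell sets, leaving out sex gave 1.08 for H2-Ab1 and -1.10 for H2-Eb1. The replicate block gave 3.03 for H2-Ab1 and called no member in either kind of set. Same-numbered sets did not deviate together (r -0.04 to 0.02), and 1 of 8 correlated best with its own number. In the permutation tests Cd74 at 12 dpi was -0.38 with a pseudocount of 0.1 and Ciita at 90 dpi -0.01 with 5. A detection count of 5 gave 2.50 points for H2-DMa at 12 dpi and 0.714 for H2-Ab1 at 90 dpi. Permuting the kind of library within sets, which takes libraries that share a source as units, made 2 calls of detection between kinds, 1 to 2 with a set left out and 3 at a detection count of 5, where H2-Aa at 90 dpi moved from 13.2 to 23.2 points.

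With 1 animal or set left out, changes of sign gave these ranges. In the permutation tests at 12 dpi they were -0.30 to 0.46 for Cd74, -0.28 to 0.11 for H2-Ab1 and -0.12 to 0.29 for H2-Eb1, and at 90 dpi -0.14 to 0.26 for Ciita, -0.14 to 0.52 for H2-DMa and -0.20 to 0.09 for H2-Eb1. For log2 changes in CKO over time they were -1.64 to 0.08 for Cd74 and -0.66 to 0.09 for Ciita, and in WT over time -1.30 to 0.03 for H2-Aa and -0.69 to 0.89 for H2-Eb1. In CKO against WT they were -0.28 to 0.74 for H2-Ab1 and -0.43 to 1.20 for H2-Eb1 at 12 dpi, and -0.71 to 0.27 for Ciita and -1.29 to 0.05 for H2-Eb1 at 90 dpi. In the genotype effect over time they were -0.68 to 1.01 for Cd74, -0.94 to 0.46 for H2-Aa and -0.31 to 0.51 for H2-DMa. In 10-cell sets they were -2.77 to 4.10 for H2-Ab1, -3.38 to 1.07 for H2-DMa, -1.40 to 3.39 for H2-DMb1 and -1.17 to 4.96 for H2-Eb1, and in pool-and-split sets -4.40 to 5.97 for H2-Aa. Detection between kinds at 12 dpi ranged from -12.9 to 7.62 points for H2-DMa, and detection of Cd74 over time in pool-and-split sets from -3.33 to 26.7 points. The cause was not tested.

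Depth limits the low values: H2-Ab1 in Tumor_16839 rests on 2.00 counts, and floors at 3 counts reach 28.4 CPM in WT at 90 dpi.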
